A study of Gossypium hirsutum with 7 samples.

Results

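The expansin genes of cotton (Gossypium hirsutum, an allotetraploid whose A and D subgenomes each supply a copy of most genes) were followed in whole ovules on the day of flowering, 0 days post anthesis. A probe set belonged to the expansins when its only annotated gene had a RefSeq name that starts with EXP or equals expansin. This gave 7 probe sets from 4 genes, of 23977 probe sets tested, of which 324 from 246 genes carried a gene name. EXPA4 (also named EXPA13D) had 3 probe sets and EXPA3D had 2. EXPA1 (the copy named EXPA1D, with EXPA2 and EXPA8 among its other names) and EXPA11A had 1 each. RefSeq lists 5 genes with such names; the remaining one, the A copy of EXPA1, has no probe set of its own among those annotated. The probe set of EXPA1 ends in _x_at and one of EXPA4 in _s_at, endings that Affymetrix uses where probes also match other transcripts, so their values may mix copies or family members. The EXPA4 probe sets Ghi.704.1.S1_at and Ghi.704.1.A1_s_at share a cluster number and differ in the code S1 or A1. EXPA3D Ghi.249.1.A1_at carries A1 as well. The strand that each probe set reads was not checked. Genome positions are left out, since no build is stated for the array.

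RNA was hybridised to a 1-colour Affymetrix array in 3 groups, all grown in a glasshouse: wild type (2 arrays), transgenic plants with the homeodomain gene GhHD-1 silenced (2 arrays) and transgenic plants over-expressing GhHD-1 (3 arrays). The comparisons ask which genes GhHD-1 may regulate as fibres initiate. Arrays within a group are biological replicates by their titles. The sources used here give neither the construct and its promoter nor the number of independent lines behind each transgenic group. GhHD-1 itself had no annotated probe set, so its level is not reported.

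Expansins are small wall proteins that loosen the contacts between cellulose and the polysaccharides around it, without cutting them, so that turgor can stretch the wall. A cotton fibre is a single epidermal cell of the ovule that starts to bulge on the day of flowering and then elongates, and EXPA1 is known for its high transcript level in growing fibre. The EXPA names mark the alpha-expansins, the branch of the family for which acid-induced wall extension was first described. In whole ovules fewer fibre initials and less RNA per initial cannot be told apart.

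The wild-type arrays differed from each other more than the arrays of the other groups did. They correlated at r = 0.981 over probe sets, the silenced pair at 0.997 and the over-expression pairs at 0.985 to 0.995. Wild-type replicate 1 correlated at 0.987 and 0.986 with the silenced arrays and at 0.977, 0.981 and 0.983 with the over-expression arrays. Wild-type replicate 2 correlated at 0.984 with each silenced array and at 0.991, 0.986 and 0.992 with the over-expression arrays. Each wild-type array was thus closer to a transgenic group than to the other wild-type array. The array labelled wild-type replicate 2 also read 11.88 at the reporter probe set RPTR-Ghi-U57609-2_s_at, against 5.09 on wild-type replicate 1 and 5.91 to 9.84 on the 5 transgenic arrays, the highest value being on an array labelled wild type. Differences of the expansins against wild type are therefore given with each wild-type array alone as well. Median log2 intensities of the arrays were 7.61 to 7.72 and the lowest 5% of probe sets lay below 3.50 to 3.67. All 7 expansin probe sets lay above that floor on every array.

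In silenced ovules all 7 expansin probe sets had means below wild type, and in 6 of them both silenced arrays lay below both wild-type arrays. Of all probe sets tested, 47.6% had lower means and 21.8% had such non-overlapping arrays. The gap between the nearest arrays was only 0.08 log2 units at EXPA1 and 0.06 at EXPA3D Ghi.249.1.A1_at. At each of the 3 EXPA4 probe sets the silenced arrays were the lowest, with differences from wild type of -0.53 to -1.07 log2 units. In over-expressing ovules the expansins had values both above and below wild type, with 4 probe sets above and 3 below. Between the transgenic groups, 5 of the 7 probe sets stood higher in every over-expression array than in every silenced array, as did 17.8% of all probe sets. Limma with Benjamini-Hochberg adjustment over all probe sets called 0 of the 7 in each of the 3 comparisons.

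**Figure D1:**
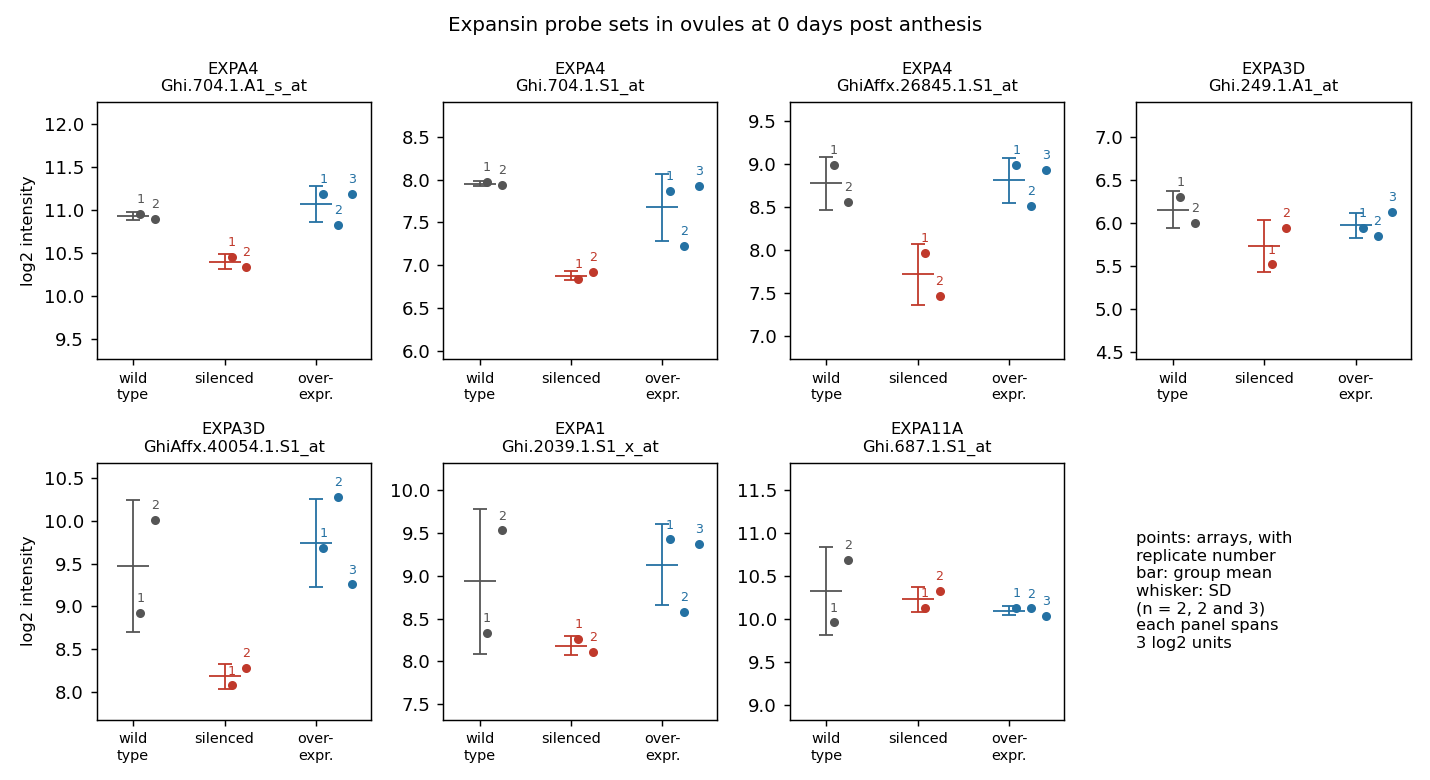
log2 intensity of the 7 expansin probe sets in wild-type, silenced and over-expression ovules; points are arrays with their replicate number, bars are group means and whiskers the SD (n = 2, 2 and 3). The silenced arrays lie lowest at the 3 EXPA4 probe sets, at EXPA3D GhiAffx.40054.1.S1_at and at EXPA1, while EXPA11A spans only 9.96 to 10.69.

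EXPA4 gave the most even picture. At Ghi.704.1.S1_at the wild-type arrays read 7.97 and 7.93, the silenced arrays 6.84 and 6.92, and the over-expression arrays 7.87, 7.22 and 7.93. The silenced arrays were the lowest of the 7, over-expression replicate 2 lay nearest to them, and the remaining over-expression arrays lay just below the wild-type arrays. The silenced mean was 6.88 ± 0.06 and the wild-type mean 7.95 ± 0.03 (SD, n = 2 each), 2.10-fold apart (log2 difference -1.07, SE 0.23, limma adjusted p = 0.172). The gap between the nearest arrays of these groups was 1.01 log2 units.

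A further EXPA4 probe set, GhiAffx.26845.1.S1_at, read 8.99 and 8.56 in wild type, 7.97 and 7.46 in silenced ovules and 8.99, 8.52 and 8.93 in over-expressing ovules. Here too the silenced arrays were the lowest, and the wild-type and over-expression arrays covered the same range. The silenced mean was 7.72 ± 0.36 and the wild-type mean 8.78 ± 0.31 (SD, n = 2 each), 2.09-fold apart (log2 difference -1.06, SE 0.25, limma adjusted p = 0.185). The probe set Ghi.704.1.A1_s_at, which may read further transcripts, read 10.96 and 10.89 in wild type, 10.46 and 10.34 in silenced ovules and 11.19, 10.83 and 11.19 in over-expressing ovules. The silenced arrays were again the lowest, but the silenced difference was smaller, at -0.53 (SE 0.16, limma adjusted p = 0.232). The over-expression mean lay above wild type here and below it at Ghi.704.1.S1_at. The EXPA4 differences kept their sign against each wild-type array alone: -1.09 and -1.05 for Ghi.704.1.S1_at, -0.56 and -0.50 for Ghi.704.1.A1_s_at, and -1.28 and -0.84 for GhiAffx.26845.1.S1_at, against replicates 1 and 2.

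EXPA3D, named as a D copy, was read by 2 probe sets that did not match. GhiAffx.40054.1.S1_at read 8.92 and 10.01 in wild type, 8.08 and 8.29 in silenced ovules and 9.68, 10.28 and 9.26 in over-expressing ovules. The silenced arrays were again lowest, and over-expression replicate 2, low at EXPA4, was the highest array here. Its range over the 7 arrays, 2.20 log2 units, was wider than that of 98.4% of all probe sets. The silenced difference from wild type was -1.28 (SE 0.42, limma adjusted p = 0.257), with -0.74 against wild-type replicate 1 and -1.83 against replicate 2, so its size rested on the wild-type array used.

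The dimmer EXPA3D probe set, Ghi.249.1.A1_at, read 6.31 and 6.0 in wild type, 5.52 and 5.94 in silenced ovules and 5.94, 5.85 and 6.13 in over-expressing ovules. The groups nearly touched: the gap between silenced and wild type was 0.06 log2 units. Its difference was -0.43 (SE 0.19, limma adjusted p = 0.368), with -0.58 against wild-type replicate 1 and -0.27 against replicate 2. Over the 7 arrays the 2 EXPA3D probe sets correlated at r = 0.27, and their deviations from the group means at -0.59. The 3 EXPA4 probe sets correlated at 0.88 to 0.96. These values describe 7 arrays that share group means.

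EXPA1, the expansin known from elongating fibre, split the wild-type arrays. Ghi.2039.1.S1_x_at read 8.34 and 9.53 in wild type, 8.26 and 8.11 in silenced ovules and 9.42, 8.58 and 9.37 in over-expressing ovules. Wild-type replicate 1 lay beside the silenced arrays and wild-type replicate 2 above all others. That gap of 1.19 log2 units within wild type was wider than at 97.6% of all probe sets. The silenced mean differed from wild type by -0.75 (SE 0.42, 95% interval -1.74 to 0.25, limma adjusted p = 0.453). Against wild-type replicate 1 alone the difference was -0.15 and against replicate 2 it was -1.34.

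EXPA11A, named as an A copy, was the member that did not follow the others. Ghi.687.1.S1_at read 9.96 and 10.69 in wild type, 10.13 and 10.33 in silenced ovules and 10.13, 10.12 and 10.04 in over-expressing ovules. Both wild-type arrays lay outside the range of the 5 transgenic arrays, one on each side. The silenced mean differed from wild type by -0.10 (SE 0.23, 95% interval -0.64 to 0.44, limma adjusted p = 0.869). Against wild-type replicate 1 the sign turned, to 0.27, and against replicate 2 it was -0.46.

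As a family, the expansins had a median difference of -0.75 between silenced and wild type, beside 0.02 over all probe sets tested, of which 47.6% lay below wild type. At an adjusted p under 0.05 limma called 0 of the 7 and 0 of all 23977 (0%). At an unadjusted p under 0.05 the fit gave 3472 probe sets in both directions. Of the expansins, 4 lay lower at that level (the 3 of EXPA4 and EXPA3D GhiAffx.40054.1.S1_at), beside 7.34% of all probe sets. Non-overlapping groups with silenced lower were found at 6 of 7 expansin probe sets and at 21.8% of all. A difference of at least 2-fold downward was found at 3 of 7, beside 0.934% of all. The members share genes, since 3 of the 7 probe sets read EXPA4, and the family is small.

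**Figure D2:**
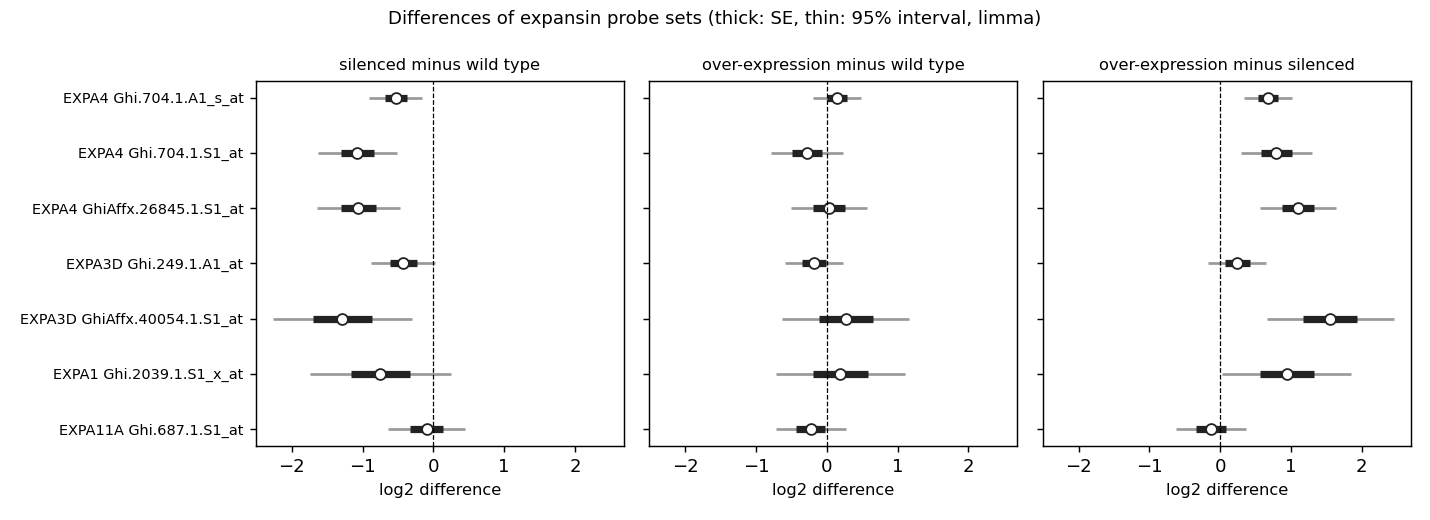
log2 differences of the 7 expansin probe sets in the 3 comparisons; circles are differences of group means, thick bars the moderated SE and thin bars the 95% interval (limma). The EXPA4 intervals lie below 0 for silenced minus wild type and above 0 for over-expression minus silenced, and all 7 intervals span 0 for over-expression minus wild type.

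In over-expressing ovules no expansin passed the test against wild type. Their median difference was 0.04, beside 0.02 over all probe sets, and the smallest adjusted p was 0.615 (limma). The largest value was -0.28 at EXPA4 Ghi.704.1.S1_at (SE 0.21, 95% interval -0.78 to 0.23), the one member whose groups did not overlap, by 0.01 log2 units. Groups that did not overlap with over-expression lower made up 9.81% of all probe sets. The other EXPA4 probe sets differed by 0.14 (95% interval -0.20 to 0.48) and 0.04 (95% interval -0.50 to 0.57). EXPA3D GhiAffx.40054.1.S1_at differed by 0.27 and EXPA1 by 0.19, with wide 95% intervals of -0.63 to 1.17 and -0.72 to 1.10. A 2-fold increase lies inside both of these intervals. The dimmer EXPA3D probe set differed by -0.18 and EXPA11A by -0.23. Limma called 1 probe set of all in this comparison (0.00417%) and 0 expansins. An unadjusted p under 0.05 was found at 2505 probe sets, 4.39% of all lower and 6.06% higher, none of them an expansin. At these shares 0 of 7 is near the background.

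Several of these small values turned sign with the wild-type array. Against wild-type replicate 1, EXPA1 stood 0.79 higher and EXPA3D GhiAffx.40054.1.S1_at 0.82 higher in over-expression. Against replicate 2 the same probe sets differed by -0.40 and -0.27. EXPA11A moved the same way, from 0.14 to -0.59. EXPA4 GhiAffx.26845.1.S1_at turned the opposite way, from -0.18 to 0.25. The remaining probe sets kept their sign, with 0.11 and 0.17 at Ghi.704.1.A1_s_at, -0.30 and -0.26 at Ghi.704.1.S1_at, and -0.33 and -0.03 at Ghi.249.1.A1_at.

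**Figure D3:**
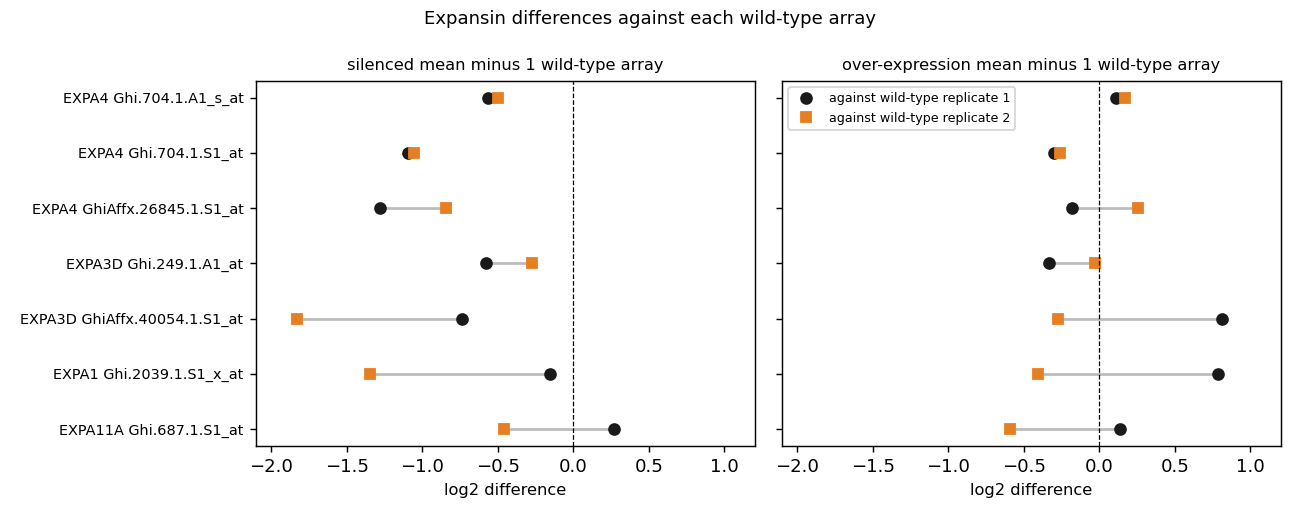
Mean of the silenced arrays (left) or of the over-expression arrays (right) minus wild-type replicate 1 (circles) or replicate 2 (squares), in log2 units, for the 7 expansin probe sets. The silenced values of EXPA4, EXPA3D and EXPA1 stay below 0 against either array, and that of EXPA11A turns sign. Over-expression values run from 0.79 to -0.40 for EXPA1 and from 0.82 to -0.27 for EXPA3D GhiAffx.40054.1.S1_at.

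The comparison between the transgenic groups does not use the wild-type arrays except for the shared estimate of the spread. EXPA3D GhiAffx.40054.1.S1_at had the widest difference, averaging 9.74 ± 0.51 (SD, n = 3) in over-expressing and 8.18 ± 0.14 (SD, n = 2) in silenced ovules, 2.94-fold apart (log2 difference 1.56, SE 0.38, limma adjusted p = 0.197). EXPA4 followed with 1.10 at GhiAffx.26845.1.S1_at (SE 0.23, limma adjusted p = 0.160), 0.79 at Ghi.704.1.S1_at (SE 0.21) and 0.67 at Ghi.704.1.A1_s_at (SE 0.14, limma adjusted p = 0.170). EXPA1 stood 0.94 higher in over-expression (SE 0.38, 95% interval 0.03 to 1.85, limma adjusted p = 0.398). The dimmer EXPA3D probe set differed by 0.24 and EXPA11A by -0.13, both with overlapping arrays. At Ghi.249.1.A1_at silenced replicate 2 and over-expression replicate 1 held the same value, as they did at 2.78% of all probe sets. EXPA11A read 10.1272 on both silenced replicate 1 and over-expression replicate 1, which held equal values at 3.16% of all.

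Over the family the median was 0.79, beside 0.01 over all probe sets. Limma called 0 of the 7, beside 5 of all probe sets (0.0209%). At an unadjusted p under 0.05 it gave 2892 probe sets in both directions; 5 expansins were higher at that level, beside 6.43% of all. The same 5 did not overlap, with over-expression higher, as did 17.8% of all probe sets, and 2 of 7 stood at least 2-fold higher, as did 0.792% of all. With array weights, in which limma gives a noisier array less influence, those 5 expansin probe sets passed, at adjusted p of 0.0172 to 0.0453, among 2.76% of all probe sets that were called higher. The weights were 1.81 on each silenced array, 0.46 on each wild-type array and 1.03, 0.61 and 2.25 on over-expression replicates 1, 2 and 3, so over-expression replicate 2, which read lowest of its group at EXPA4 and EXPA1, counted least within its group. Without that array EXPA1 differed by 1.21, EXPA3D GhiAffx.40054.1.S1_at by 1.29 and EXPA4 Ghi.704.1.S1_at by 1.02, with 0 expansins called.

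Markers of fibre and epidermis were read beside the expansins, since EXPA1 is a gene of growing fibre. The 6 marker probe sets from 5 genes (E6, Rac13, MYB109, HOX3 and a lipid transfer protein gene) had summed intensities of 12.82 to 13.27 on the log2 scale in wild type, 12.95 to 12.99 in silenced and 12.73 to 13.27 in over-expressing ovules. The silenced arrays lay inside the wild-type range of this sum, to which the lipid transfer protein gene, the brightest marker, contributed most. Taken singly, 2 of the 6 markers had both silenced arrays below both wild-type arrays, and 4 overlapped. Such non-overlap with silenced lower was found at 21.8% of all probe sets, a share at which 2 of 6 is near the background. The 2 lower markers were E6, at -0.62 (SE 0.34), and HOX3, which read 10.16 and 10.60 in wild type and 9.94 and 10.06 in silenced ovules (-0.38, SE 0.26). In the limma fit 0 of the 6 had an unadjusted p under 0.05 between silenced and wild type, beside 7.34% of all probe sets lower and 7.14% higher, shares at which 0 of 6 is near the background. Across arrays, the marker sum was lowest in over-expression replicate 2 and wild-type replicate 1, the arrays at which EXPA1 was also lowest within its group. In the silenced group the order was reversed, with sums of 12.95 and 12.99 beside EXPA1 values of 8.26 and 8.11 in replicates 1 and 2. EXPA1 was lowest of all on these silenced arrays, whose marker sums lay above those of wild-type replicate 1 and over-expression replicate 2. The part of the markers in the EXPA1 and EXPA4 values was not tested. None of the marker probe sets was listed at 0; the lowest read 3.77, near the floor.

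Other tissues of the ovule were followed by name as well. The 9 probe sets named for seed storage and late embryogenesis genes (1 of them an S-adenosylmethionine synthetase that shares the prefix) had summed log2 intensities of 13.08 to 13.43 in wild type, 12.82 to 12.87 in silenced and 12.81 to 13.30 in over-expressing ovules. Their medians were 0.18 for silenced minus wild type, 0.15 for over-expression minus wild type and -0.01 between the transgenic groups. The single pollen-type gene, a pectinase, read 3.67 to 4.46 on all arrays, near the floor, and no green-tissue marker was annotated. Their part in the expansin values was not tested.

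The named genes with the profile most like each expansin were sought among 317 other named probe sets by Pearson's r over the 7 arrays. EXPA1 was followed most closely by the fibre gene E6 (r = 0.938), the homeodomain gene HOX3 (0.932) and a MYB gene named GHMYB36 (0.927). E6 read 10.09 and 10.70 in wild type, 9.85 and 9.69 in silenced ovules and 10.62, 9.73 and 10.62 in over-expressing ovules, so it too separated the wild-type arrays and dipped in over-expression replicate 2. The bright EXPA3D probe set was most like the NAC factor NAC7 (0.954), the ACC oxidase ACO3 of ethylene synthesis (0.952) and the sterol methyltransferase SMT2-1 (0.903). ACO3 read 10.67 and 11.44 in wild type, 9.35 and 9.43 in silenced ovules and 11.12, 11.27 and 10.31 in over-expressing ovules, with the silenced arrays lowest as at EXPA3D.

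EXPA4 had other neighbours. Ghi.704.1.S1_at was most like the peroxidase genes pod7 (0.942) and POX10 (0.918) and Di19-1 (0.910). GhiAffx.26845.1.S1_at was nearest to the WD-repeat gene GHTTG1 (0.929), to the gene named GRPL1 and rgp1 (0.915) and to the peroxidase POX5 (0.851). Ghi.704.1.A1_s_at shared POX5 (0.937) and rgp1 (0.898) with it and was nearest to a MYB gene named MYB5 and MYB6 (0.939). The dimmer EXPA3D probe set had pod7 (0.882), FLA18 (0.838) and POX10 (0.834), and EXPA11A had the manganese superoxide dismutase gene (0.885), AOX1 (0.800) and FLA12 (0.785). For the closest neighbour of each expansin, 0.133% to 0.438% of all probe sets had an r at least as high, so many unnamed probe sets are as close.

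**Figure D4:**
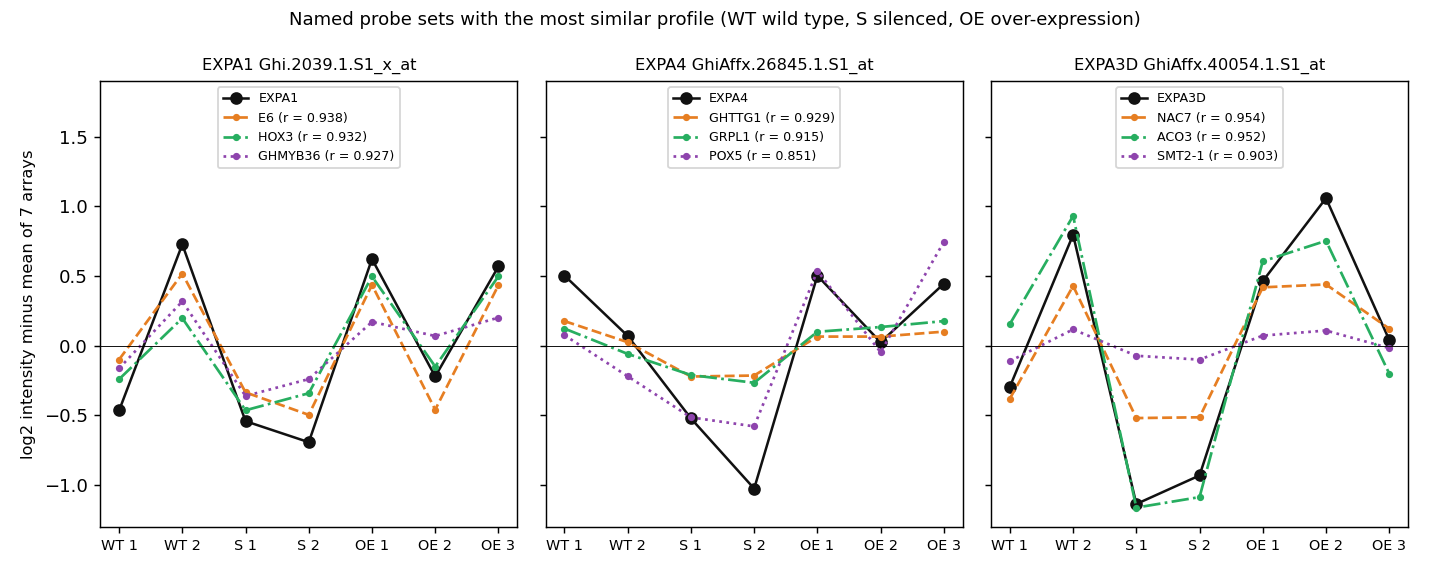
log2 intensity minus its mean over the 7 arrays for EXPA1, an EXPA4 probe set and an EXPA3D probe set (black) and the 3 named probe sets most like each, by array; lines only join the values of a probe set. EXPA1 and E6 are high in wild-type replicate 2 and over-expression replicates 1 and 3, and EXPA3D and ACO3 are lowest on the silenced arrays.

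The other genes of the wall had medians nearer to 0 than the expansins for the comparisons with silenced ovules. Of 27 probe sets from 19 genes, 15 lay below and 12 above wild type in silenced ovules, with a median of -0.08; limma called 0. At an unadjusted p under 0.05, 5 of the 27 lay below and 1 above, beside 7.34% and 7.14% of all probe sets. Lowest by p were rgp1 (-0.91, SE 0.16, limma adjusted p = 0.135) and the xyloglucan endotransglucosylase gene XTH (-1.0, SE 0.21), and above wild type stood CEL (0.32) and GAE2 (0.29). In over-expression 16 lay below and 11 above wild type, with a median of -0.10 and 0 called (2 below and 0 above at an unadjusted p under 0.05, beside 4.39% and 6.06% of all). XTH stood below at both of its leading probe sets (-1.04 and -0.51), and the cellulose synthase gene CelA1 above at 2 probe sets (0.42 and 0.43). Between the transgenic groups 15 were higher and 12 lower in over-expression, with a median of 0.09 and 0 called (4 higher and 1 lower at an unadjusted p under 0.05, beside 6.43% and 5.63% of all); rgp1 stood higher at 2 probe sets (0.59 and 0.38), and CEL (-0.31) and H6L (-0.41) lower. XTH, which also remodels the xyloglucan of growing walls, was thus below wild type in both transgenic groups, whereas EXPA4 was below it by more than 2 SE in silenced ovules alone; the difference between these patterns was not tested.

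The other lists had 0 calls by limma in each comparison, and their members overlap: E6 is in the wall list as well as the fibre list, and the markers above are part of the fibre list. At an unadjusted p under 0.05, for which the shares of all probe sets are those just given, 3 of the 19 fasciclin-like probe sets were lower and 3 higher in silenced than in wild-type ovules. In over-expression against wild type 7 were lower and 1 higher, and between the transgenic groups 4 were lower and 0 higher in over-expression. The fibre list had 0, 0 and 1 of 13 at that level in the comparisons in the same order, and the hormone list 3, 2 and 1 of 13, all of them higher. The 19 fasciclin-like probe sets had medians of 0.04 for silenced minus wild type, -0.25 for over-expression minus wild type and -0.08 between the transgenic groups, with FLA4 at 0.64, -0.94 and -1.58. The 13 fibre and epidermis probe sets had medians of 0.03, 0.05 and 0.02, with E6 at -0.62 in silenced ovules and 0.55 between the transgenic groups. This list also holds tubulin and actin genes, so its medians and counts do not stand for fibre genes such as E6 and HOX3 alone. The 1 member with an unadjusted p under 0.05 between the transgenic groups was the marker HOX3, at 0.68 (SE 0.23). In that comparison 8 of the 13 lay above and 5 below. The 13 probe sets of auxin, gibberellin and brassinosteroid genes, hormones that act on cell growth, had medians of 0.16, 0.21 and 0.05, with the gibberellin receptor gene GID1-4 at 0.68, 0.39 and -0.29. The 1 hormone probe set with an unadjusted p under 0.05 between the transgenic groups was not GID1-4 but GAI2, at 0.50 (SE 0.14). In that comparison 8 of the 13 lay above and 5 below.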

How the data were processed

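The values deposited by the authors are log2 intensities per probe set of 7 one-channel arrays of whole ovules. The tools named per the submitters' processing notes are RMA, limma and R 2.7.1, without their roles, and no build is named. RMA equalises array distributions, so a global shift between groups is removed and low signals are compressed. Of 24132 probe sets, 103 AFFX and 52 RPTR controls were set apart. Gene names came from the platform's annotation and RefSeq (Gossypium_hirsutum_v2.1): 697 had 1 gene, all matched, and 46 had several and were not named.

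All 23977 probe sets were fitted with limma 3.58.1 in R 4.3.3 (1 mean per group on 7 arrays, eBayes defaults, 4 residual and 3.01 prior degrees of freedom), two-sided, with Benjamini-Hochberg adjustment over all probe sets of a contrast and a threshold of 0.05. The fit was tested on simulated data. The number of arrays limits the precision. Sample titles gave the groups. No expansin was filtered out. The named genes are every expansin, the 3 named probe sets most like each, and, of the lists of other wall genes, fasciclin-like, fibre and epidermis, and hormone genes, members with the smallest p each way. For the last 3 lists only some of these are printed. The members and lists were chosen with earlier results of these data known.

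Alternative fits used the replicate number as a block, the compared groups alone, a prior with an intensity trend, a robust prior, array weights, median centring, cyclic loess, a mean log2 of at least 6, and each array left out. Replicate numbers were not taken to pair the arrays. Promoter and protein sequences were not used here.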

Additional observations from a re-analysis of the deposited data

Results flagged for a closer look

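Among the control probe sets, which enter no comparison, the reporter RPTR-Ghi-A06498-1_at separated the silenced arrays from wild type, with a gap of 5.41 log2 units between the nearest arrays. Over-expression arrays read 4.39 to 4.66 there, close to wild type (4.08 and 4.59).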

How the results depend on the processing

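Of 312 values for single expansins under alternatives, 298 kept their direction and their side of the threshold and 9 turned sign, at probe sets whose reported values lay between -0.23 and 0.27. Array weights brought 5 expansins past the threshold between the transgenic groups, where the count was 0 with the reported settings and with each other alternative. With 1 array left out, EXPA11A ran from -0.46 to 0.27 for silenced minus wild type (0.27 without wild-type replicate 2, 0.0068 without silenced replicate 1). For over-expression minus wild type the ranges were -0.40 to 0.79 for EXPA1 and -0.27 to 0.82 for EXPA3D GhiAffx.40054.1.S1_at (both lowest without wild-type replicate 1), -0.59 to 0.14 for EXPA11A and -0.18 to 0.25 for EXPA4 GhiAffx.26845.1.S1_at (these 2 turned without wild-type replicate 2, and the latter also without over-expression replicate 1 or 3). The replicate block put the latter at -0.023. The cause was not tested. Calls over all probe sets were less stable. For silenced minus wild type the count of 0 was 7 with a robust prior and 0 to 73 when 1 array was left out (73 without wild-type replicate 1, 35 without replicate 2). For over-expression minus wild type the count of 1 was 0 with the replicate block, array weights, cyclic loess and only the groups compared, and 0 to 475 when 1 array was left out (475 without wild-type replicate 2). Between the transgenic groups the count of 5 was 0 with the replicate block, 1209 with array weights, 9 with median centring, 238 with only the groups compared and 0 to 238 when 1 array was left out. Those left-out fits called 0 expansins in each comparison; with a lone array, a group is assumed to vary like the others. Deviations of same-numbered arrays from their group means correlated at -0.305 to 0.148. In a group of 2 arrays these deviations mirror each other, and differently numbered arrays were not compared, so the values cannot decide whether the numbers mark pairs. The replicate block changed no expansin call. The filter at a mean of 6 kept 6 of 7 expansins. Signals near 4 are close to the floor, and no expansin reached it.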
